A study of Rattus norvegicus with 22 samples.

Results

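Kidneys of polycystic rats given the conditioned medium of human adipose-derived stromal cells (CM) were compared with kidneys of polycystic rats given the cells themselves by intraperitoneal injection (i.p. ASC). The members were chosen by treatment label alone, which gave 4 CM rats and 6 i.p. ASC rats out of 22 rats in all. Every animal was a male PKD/Mhm (Cy/+) rat of 8 months, heterozygous for the spontaneous Cy mutation, a missense change in Anks6 that produces cystic kidney disease, so the untreated controls carried the mutation too. The i.p. ASC rats received 2000000 cells per injection, once a month for 6 months. The CM rats received the cell-free supernatant of such cultures on the same schedule; the labels say only CM, and that it came from ASC was read from the group names of the study. The labels name no route for CM, and the methods and the design text of the study differ on it (intravenous or intraperitoneal), so treatment and route cannot be told apart where they differed. The donor cells were human and the recipients were not, a limit of both groups as a model of treatment. The left kidney was snap-frozen and its whole tissue was sequenced, 1 library per rat, and 6 untreated rats are given beside the results as the background.

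The kidney's collecting duct is built of principal cells, which take up sodium and water, and intercalated cells, which move acid and base. Intercalated cells carry a proton pump, the vacuolar H+-ATPase, in a form assembled from subunits that few other cells use, together with chloride-bicarbonate exchangers and ammonia channels. The forkhead factor Foxi1 is the known master regulator of this cell type. ASC release soluble factors into their medium, and CM is used to ask how much of a cell treatment depends on the cells being present.

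The gene list with the most low unadjusted p-values between CM and i.p. ASC kidneys was that of the intercalated cell. For 3 of its genes the sequence before their start is shown here. Foxi1 is on the same list, and whether it acts on these genes was not tested. Of the 13 intercalated cell genes, 10 had an entry in the RefSeq promoter table of the rat assembly GRCr8, which is a later build than that of the files. The letters TGTTTA and TGTTTG, the core that forkhead factors bind, were searched on both strands in the 250 bases before each start. They were present in 4 of these 10 windows (Atp6v1g3, Atp6v1b1, Slc4a9 and Hmx2), against 25.1% of the windows of 27457 genes and 17.2% of those of the 10393 tested genes with an entry. The windows of Slc26a4, Atp6v0a4, Foxi1, Aqp6, Rhcg and Rhbg held 0 matches. The 3 windows printed were taken from those with a match. A match is a description of the letters and not a binding site. In the sequences, capitals mark the matches, and a match on the other strand appears as TAAACA or CAAACA. Atp6v1g3 lies on chr13:52362082-52362331, Atp6v1b1 on chr4:117781194-117781443 and Slc4a9 on chr18:28402543-28402792, each on the plus strand.
Atp6v1g3: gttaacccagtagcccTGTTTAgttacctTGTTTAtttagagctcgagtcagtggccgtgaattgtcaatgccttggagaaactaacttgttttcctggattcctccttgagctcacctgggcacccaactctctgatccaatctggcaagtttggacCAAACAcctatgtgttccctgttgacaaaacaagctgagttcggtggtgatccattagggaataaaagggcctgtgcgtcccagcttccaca
Atp6v1b1: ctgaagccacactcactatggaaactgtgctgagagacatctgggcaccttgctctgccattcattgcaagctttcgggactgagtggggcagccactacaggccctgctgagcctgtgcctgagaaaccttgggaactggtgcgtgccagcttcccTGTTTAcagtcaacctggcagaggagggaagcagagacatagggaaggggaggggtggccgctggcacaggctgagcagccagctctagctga
Slc4a9: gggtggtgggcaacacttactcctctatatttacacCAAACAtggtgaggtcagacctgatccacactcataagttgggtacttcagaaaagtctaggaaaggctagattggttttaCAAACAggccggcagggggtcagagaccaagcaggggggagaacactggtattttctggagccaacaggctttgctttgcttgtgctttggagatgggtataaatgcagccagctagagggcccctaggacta

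Total estimated counts of the 10 rats ran from 12291823 to 13959331, and the lowest rank correlation between any pair of them was 0.948. The nephron markers Umod, Slc12a3 and Aqp2 were present in all 10 libraries, as the label kidney requires. The first principal component held 42.8% of the variance and crossed the treatments: CM rat 1 stood at 51.5, i.p. ASC rat 1 at 45.9 and i.p. ASC rat 3 at 38.4, while the other 7 rats lay between -31.8 and 20.1. Those 3 rats also had the highest levels of the proximal tubule list, at 8.01, 8.26 and 8.00 mean log2 CPM (CPM being a rat's counts scaled to a common library size), against 6.35 to 7.74 in the others.

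Of 17334 genes in the files, 12867 had enough counts to be tested. With edgeR's quasi-likelihood test and Benjamini-Hochberg adjustment, 0 genes (0% of those tested) differed between CM and i.p. ASC, and the smallest adjusted p was 0.489. At an unadjusted p under 0.05 there were 379 genes (2.95%), of which 130 (1.01%) were higher and 249 (1.94%) lower in CM. Without CM rat 2 and i.p. ASC rat 5 the split was 94 higher and 91 lower. DESeq2 called 3 of 12865 genes (0.0233%), Pcdhga7, Lrp4 and S100a1. The values of the CM rats lay entirely outside those of the i.p. ASC rats for 69 genes (0.536%), 23 above (0.179%) and 46 below (0.358%). On the deposited TPM there were 41 such genes, 25 above and 16 below, so the balance of directions turned with the measure. Fold changes below are CM relative to i.p. ASC on the log2 scale. Because no gene passed the adjusted test, they describe these 10 kidneys and are not called changes. Over all genes tested, the median log2 fold change was 0.01, with 46.9% of genes lower and 53.1% higher in CM. In the sentences on single genes below, the values of i.p. ASC are the lowest, median and highest of its 6 rats and those of CM are rats 1 to 4 in order.

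The intercalated cell list gave the densest group of low values. Of its 13 genes, all tested, 11 had a lower mean in CM and 10 had an unadjusted p under 0.05, all 10 of them lower, while 1.94% of all genes were lower at that threshold. Markers of a single cell type are read in the same kidneys, so these counts do not stand for independent genes. The median log2 fold change of the list was -0.43, against 0.01 over all genes. The mean level of the list was 7.59 ± 0.18 log2 CPM in CM (SD, n = 4), 7.95 ± 0.23 in i.p. ASC (SD, n = 6) and between 7.67 and 8.10 in the 6 untreated rats. The adjusted p was 0.9998 for each of the 13 genes, and in 0 of them were the groups fully apart. In whole-kidney RNA, fewer cells of a type and less RNA per cell cannot be told apart.

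The pattern leaned on a rat in each group. CM rat 2 was the lowest of the 10 rats for 10 of the 13 genes, and i.p. ASC rat 5 was the highest for 11. Leaving out CM rat 2 left 6 genes at an unadjusted p under 0.05, and leaving out i.p. ASC rat 5 left 7. Leaving out both left 3 (Slc26a4, Atp6v1g3 and Atp6v1b1), with a median of -0.24 and with 0.707% of all genes lower at that threshold. This pair was chosen after seeing the data. The 2 rats hold the extremes of the list's mean level, so leaving them out narrows its difference by construction and also leaves fewer rats.

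**Figure D1:**
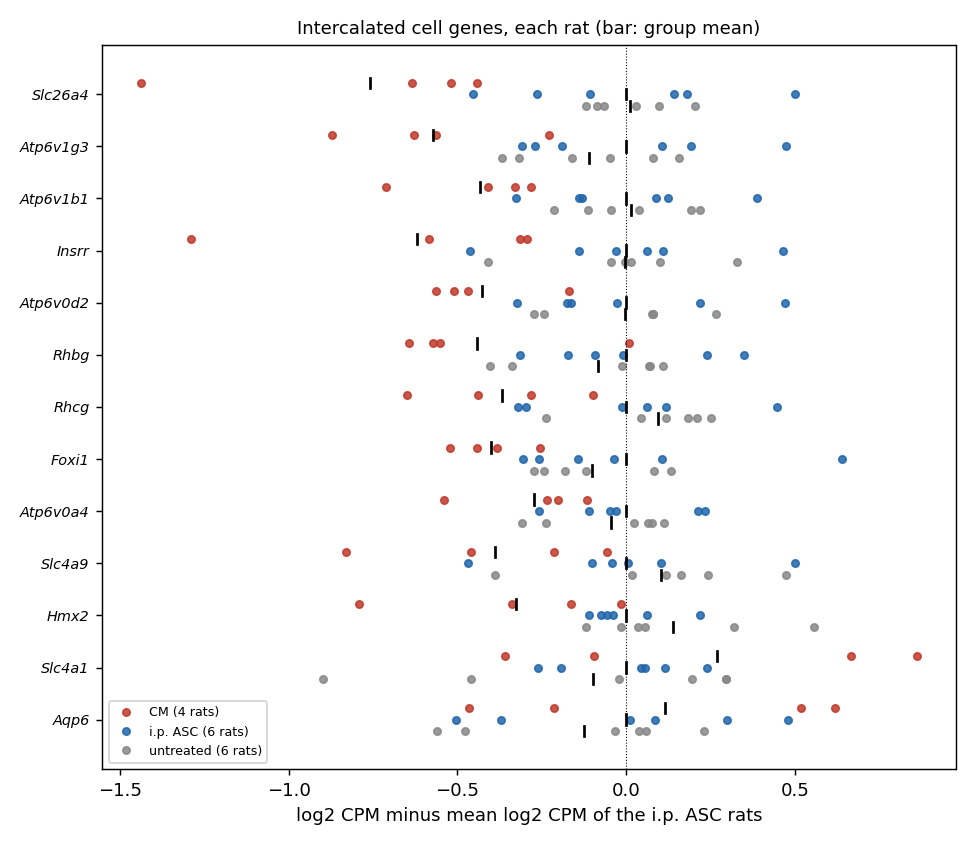
Level of each of the 13 intercalated cell genes in every CM (red), i.p. ASC (blue) and untreated (grey) rat, as log2 CPM minus the mean of the i.p. ASC rats (x axis), with black bars for group means. For 11 genes the CM mean lies left of the i.p. ASC mean, with overlapping rats, and Slc4a1 and Aqp6 lie to the right.

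The kidney forms of the proton pump acidify the urine from intercalated cells. Atp6v1g3, the G subunit form restricted to intercalated cells, was at 315, 202, 250 and 239 CPM in CM rats 1 to 4, and its i.p. ASC values had a lowest, median and highest of 298, 361 and 513 CPM. CM rat 1 alone reached into the i.p. ASC range, and the log2 fold change was -0.58 (SE 0.16, unadjusted p 0.0012). Atp6v1b1, the B1 subunit whose loss causes distal renal tubular acidosis, was at 312, 232, 302 and 286 CPM in CM and at 303, 375 and 496 CPM (lowest, median, highest) in i.p. ASC. Only the lowest i.p. ASC rat fell within the CM range, and the log2 fold change was -0.44 (SE 0.12, unadjusted p 0.0017). Atp6v0d2, the d2 subunit of the membrane sector, was at 109, 83.1, 88.8 and 86.3 CPM in CM and at 98.2, 115 and 170 CPM in i.p. ASC. Its log2 fold change was -0.44 (SE 0.14, unadjusted p 0.0052), again with CM rat 1 inside the i.p. ASC range. Atp6v0a4, the a4 subunit, another gene of distal renal tubular acidosis, was at 616, 460, 581 and 567 CPM in CM against 558, 650 and 786 CPM in i.p. ASC. The overlap was wider and the difference smaller, -0.28 (SE 0.11, unadjusted p 0.022).

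The whole proton pump family was then read out, a choice made after the values of the list were seen. Of 23 subunit and accessory genes tested, 20 were lower in CM and 3 higher, 11 had an unadjusted p under 0.05, all lower, and the median was -0.19, where 46.9% of all genes were lower and 1.94% were lower at that threshold. Of the 19 genes that are not on the intercalated cell list, 7 were lower at that threshold. The family was read in the same rats as the list and shares 4 genes with it, so it is not separate evidence. Besides the 4 genes above, Atp6v1c2, a C subunit form used in few tissues, was at 64.6, 49.5, 46.9 and 51.2 CPM in CM and at 61.3, 67.9 and 94.8 CPM in i.p. ASC, a log2 fold change of -0.45 (SE 0.13, unadjusted p 0.0018). The other 6 were Atp6v1f, Atp6v1h, Atp6v1d and Atp6v1e1, subunits of the catalytic sector, and the accessory proteins Atp6ap1 and Atp6ap2, with log2 fold changes between -0.26 and -0.18. The housekeeping counterparts given here, of Atp6v1b1, Atp6v0d2, Atp6v1c2 and Atp6v1g3, lay near 0, and that of Atp6v0a4 is not given. These counterparts were picked from the family, in which 8 of 23 genes lay within 0.15 of 0. Whether kidney and housekeeping forms differed was not tested. Genes outside the intercalated cell list were not all near 0, as the 6 genes just named were lower at the unadjusted threshold. Atp6v1b2, the B form of most cells, had a log2 fold change of -0.10, Atp6v0d1 of -0.04, Atp6v1c1 of -0.04 and Atp6v1g1 of -0.03, and the last 3 changed sign when single rats were left out.

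**Figure D2:**
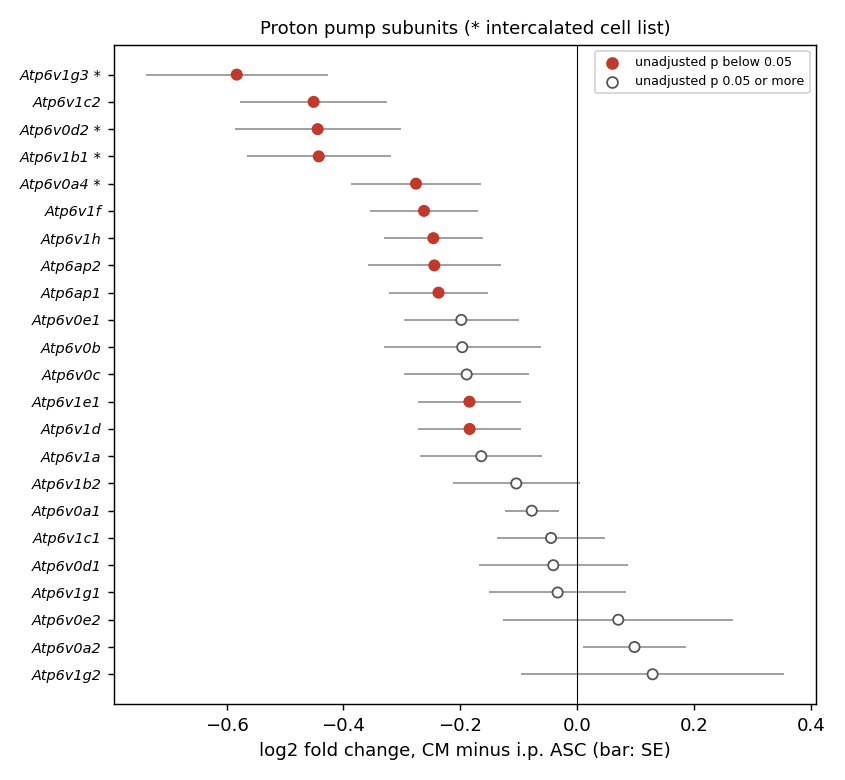
Log2 fold change, CM minus i.p. ASC (x axis, bars SE), of the 23 proton pump genes, filled where the unadjusted p was under 0.05 and starred where the gene is on the intercalated cell list. The 11 filled genes all lie below 0, led by Atp6v1g3 at -0.58, and the 8 genes from Atp6v1b2 to Atp6v1g2 lie between -0.10 and 0.13.

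Among the anion exchangers, Slc26a4 (pendrin), which secretes bicarbonate from type B intercalated cells, had the greatest difference of the list. Its values were 312, 179, 338 and 356 CPM in CM and 353, 491 and 684 CPM (lowest, median, highest) in i.p. ASC, with a median of 478 CPM in untreated rats. A single CM rat passed the lowest i.p. ASC rat, and the log2 fold change was -0.74 (SE 0.19, unadjusted p 0.00084). Slc4a9, the basolateral exchanger of the same cells, was at 198, 153, 262 and 235 CPM in CM and at 197, 269 and 386 CPM in i.p. ASC, with a log2 fold change of -0.39 (SE 0.17, unadjusted p 0.036). Slc4a1, the exchanger of type A cells, went the other way at 246, 305 and 348 CPM in i.p. ASC and at 535, 468, 276 and 230 CPM in CM (log2 fold change 0.35, SE 0.30, unadjusted p 0.26). CM rats 1 and 2 were above every i.p. ASC rat and CM rat 4 below all of them. Red blood cells also express Slc4a1, and the red blood cell list had a median of -0.34 with 1 of 6 genes higher in CM. The mean level of that list varied widely, from 1.705 to 4.989 log2 CPM in CM and from 3.347 to 5.667 in i.p. ASC. The part of blood in the Slc4a1 values was not tested.

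The ammonia channels Rhbg and Rhcg sit at the basal and apical faces of acid-secreting cells. Rhbg was at 197, 237 and 312 CPM in i.p. ASC and at 246, 165, 157 and 167 CPM in CM (log2 fold change -0.43, SE 0.15, unadjusted p 0.0099), and CM rat 1 stood apart from the other CM rats. Rhcg was at 286, 364 and 487 CPM in i.p. ASC and at 334, 228, 264 and 294 CPM in CM (log2 fold change -0.38, SE 0.14, unadjusted p 0.012). Both sets of values overlapped between the groups.

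Foxi1 itself was at 137, 114, 120 and 125 CPM in CM and at 132, 153 and 254 CPM in i.p. ASC, a log2 fold change of -0.43 (SE 0.17, unadjusted p 0.018). The CM rats lay close together, and i.p. ASC rat 5 lay far above the other i.p. ASC rats, which reached 175 CPM. Without i.p. ASC rat 5 and CM rat 2 the log2 fold change was -0.24. Insrr, the insulin receptor-related receptor, an alkali sensor of type B cells, was at 132, 184 and 251 CPM in i.p. ASC and at 122, 74.5, 149 and 146 CPM in CM (log2 fold change -0.60, SE 0.18, unadjusted p 0.0038). Hmx2, a homeobox factor, had a log2 fold change of -0.30 (SE 0.15, unadjusted p 0.058), and Aqp6, a channel of intracellular vesicles in type A cells, one of 0.15 (SE 0.29, unadjusted p 0.62).

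The untreated rats lay beside the i.p. ASC rats for this list. The median log2 fold change of its genes was -0.45 for CM relative to untreated and 0.02 for i.p. ASC relative to untreated. The first of these values shares the 4 CM rats with the comparison above and is not separate evidence of it.

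**Figure D3:**
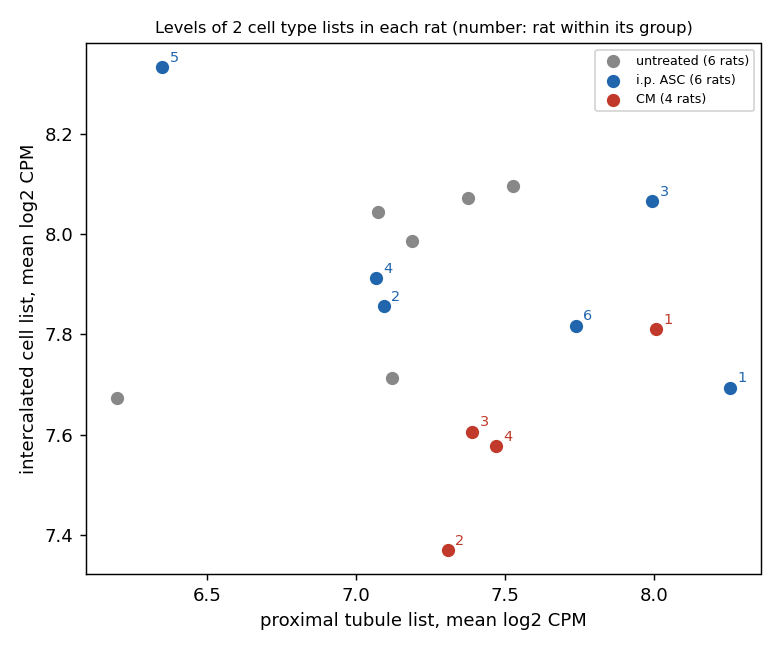
Mean log2 CPM of the intercalated cell list (y axis) against that of the proximal tubule list (x axis) in each rat, numbered within its group. The CM rats lie between 7.37 and 7.81 on the y axis and the i.p. ASC rats between 7.69 and 8.33, while both groups spread along the x axis.

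With the proximal tubule level of each rat added to the fit, 10 of the 13 intercalated cell genes had an unadjusted p under 0.05 and the list's median was -0.40. Without the 3 rats of high proximal tubule level, a subset chosen after seeing the data, the count was 10 of 13 and the median -0.54. The proximal tubule level does not measure the share of collecting duct in a piece of kidney. The part of tissue composition in the intercalated cell values was not tested.

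Principal cells, the neighbours of intercalated cells, gave a smaller set of low values. Of 11 principal cell genes tested, 8 were lower in CM and 3 had an unadjusted p under 0.05, all lower, with a median of -0.15. Over all genes tested, 46.9% were lower in CM and 1.94% were lower at that threshold. Scnn1g, the gamma subunit of the epithelial sodium channel, was at 108, 160 and 182 CPM in i.p. ASC and at 121, 91.0, 109 and 118 CPM in CM (log2 fold change -0.43, SE 0.15, unadjusted p 0.010). Scnn1b, the beta subunit, was at 154, 236 and 286 CPM in i.p. ASC and at 159, 130, 199 and 186 CPM in CM (log2 fold change -0.45, SE 0.16, unadjusted p 0.013). Hsd11b2, the enzyme that keeps cortisol and corticosterone off the mineralocorticoid receptor, was at 889, 1157 and 1611 CPM in i.p. ASC and at 886, 594, 1041 and 941 CPM in CM (log2 fold change -0.45, SE 0.16, unadjusted p 0.013). Scnn1a, the alpha subunit, had a log2 fold change of -0.38 (SE 0.20, unadjusted p 0.073). Aqp2, the vasopressin-regulated water channel and the defining principal cell gene, did not share the shift, at 429, 684 and 856 CPM in i.p. ASC and at 866, 726, 497 and 545 CPM in CM (log2 fold change -0.01, SE 0.27). Without CM rat 2 and i.p. ASC rat 5, the unadjusted p of Scnn1g, Scnn1b and Hsd11b2 was 0.083, 0.13 and 0.18. In that fit 0.707% of all genes were lower in CM at an unadjusted p under 0.05.

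Genes of the aldosterone-sensitive segments next to the collecting duct were also read out, again after values had been seen. Sgk1, the kinase that aldosterone and glucocorticoids induce and that keeps the sodium channel at the membrane, was at 218, 268 and 461 CPM in i.p. ASC and at 123, 161, 152 and 230 CPM in CM (log2 fold change -0.80, SE 0.32, unadjusted p 0.021). The highest of these was i.p. ASC rat 5, and the other i.p. ASC rats reached 302 CPM. Tissue kallikrein, the protease that the connecting tubule secretes into urine, belongs to a rat family of near-identical copies, so the split of reads among them is uncertain. All 6 family genes tested were lower in CM, 5 with an unadjusted p under 0.05, with a median log2 fold change of -1.11, beside the 1.94% of all genes lower at that threshold. Near-identical copies can share reads, so these counts do not stand for independent genes, and Klk1c3 among them rests on few counts. Klk1 was at 425, 683 and 1103 CPM in i.p. ASC and at 247, 156, 507 and 536 CPM in CM (log2 fold change -0.95, SE 0.37, unadjusted p 0.018). Klk1b3 was at 345, 469 and 713 CPM in i.p. ASC and at 257, 73.3, 278 and 372 CPM in CM (log2 fold change -0.99, SE 0.36, unadjusted p 0.012). CM rat 2 was again the lowest of the 10 for both. Fits without CM rat 2 and i.p. ASC rat 5 are not given for the genes of this paragraph.

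In the distal convoluted tubule list, 4 of 5 genes were lower in CM with a median of -0.46, the lowest of the 51 lists, but 0 had an unadjusted p under 0.05. Slc12a3, the thiazide-sensitive sodium chloride cotransporter, ran from 948 to 2770 CPM in i.p. ASC and from 680 to 2304 CPM in CM (log2 fold change -0.54, SE 0.36, unadjusted p 0.14). Calb1, the calcium-binding protein of that segment, ran from 197 to 668 CPM in i.p. ASC and from 125 to 417 CPM in CM (log2 fold change -0.64, SE 0.36, unadjusted p 0.091). CM rats 1 and 2 were low and CM rats 3 and 4 within the i.p. ASC range for both.

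The thick ascending limb list did not move as a whole, with 6 of 11 genes lower and a median of -0.04. Its 1 gene with an unadjusted p under 0.05 was Bsnd (barttin), an accessory subunit of chloride channels, which intercalated cells express as well. Bsnd was at 131, 177 and 223 CPM in i.p. ASC and at 139, 102, 158 and 142 CPM in CM (log2 fold change -0.43, SE 0.15, unadjusted p 0.0076). Egf, made in this segment, ran from 863 to 2019 CPM in i.p. ASC and from 776 to 1578 CPM in CM (log2 fold change -0.48, SE 0.28, unadjusted p 0.099). Umod, the gene of uromodulin, the main protein of normal urine, ran from 1639 to 7945 CPM in CM and from 2359 to 5735 CPM in i.p. ASC, with a log2 fold change of 0.13 (SE 0.40) that turned to -0.37 without CM rat 1.

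**Figure D4:**
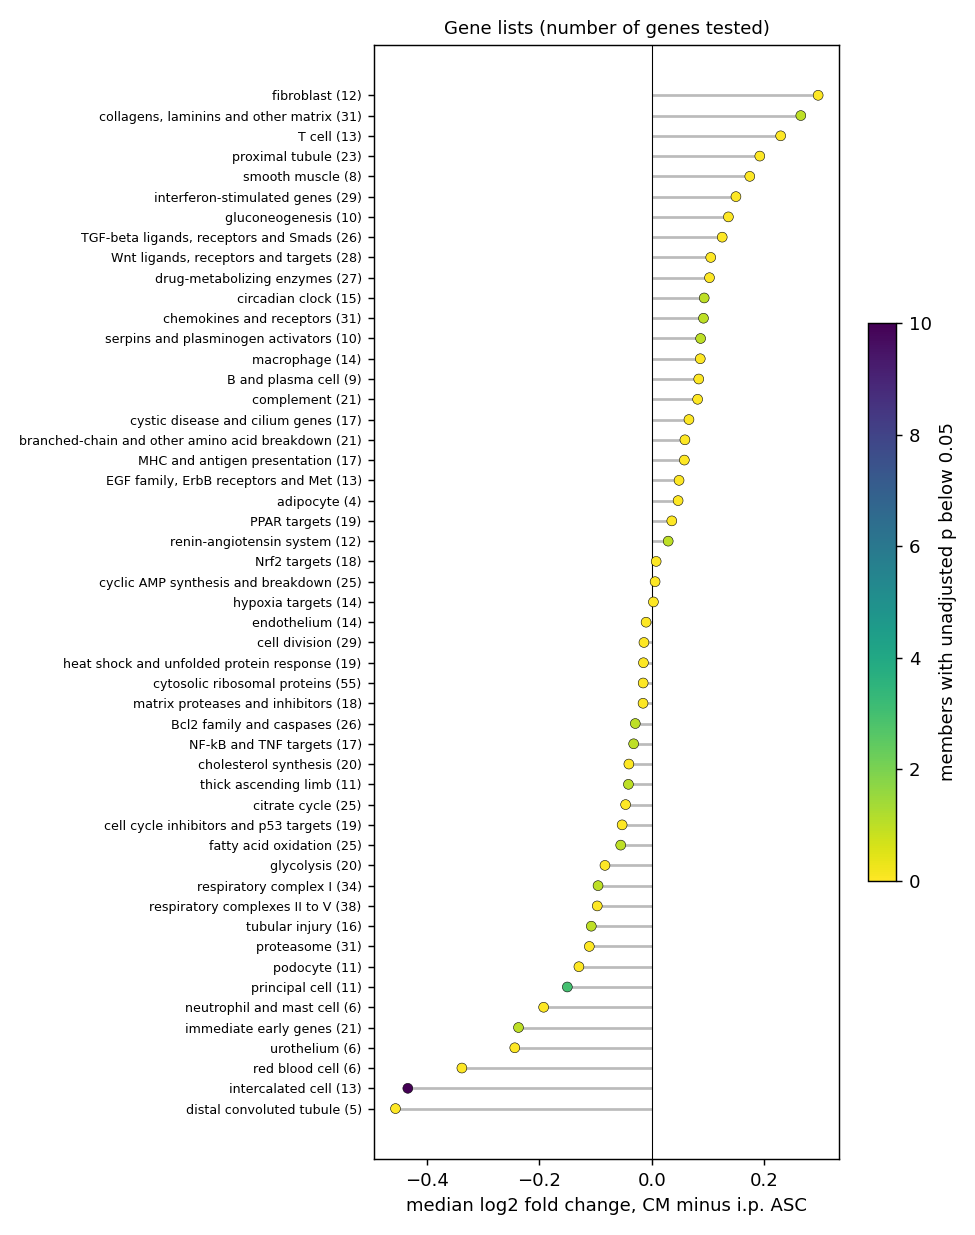
Median log2 fold change, CM minus i.p. ASC (x axis), of the 51 gene lists, with the number of genes tested in brackets and colour for the number of members with an unadjusted p under 0.05. The intercalated cell list holds 10 such members, the principal cell list 3, and no other list more than 1.

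Upstream of the distal nephron, the proximal tubule list had 21 of 23 genes higher in CM and a median of 0.19, with 0 genes at an unadjusted p under 0.05. Its level was 7.55 ± 0.32 log2 CPM in CM (SD, n = 4) and 7.42 ± 0.71 in i.p. ASC (SD, n = 6), so the spread among rats was wider than the difference. Miox, an inositol-degrading enzyme of this segment, ran from 766 to 2342 CPM in CM and from 290 to 2340 CPM in i.p. ASC, and its log2 fold change of 0.19 (SE 0.56) became -0.27 without CM rat 1. The podocyte list had a median of -0.13 with 8 of 11 genes lower.

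Oxidative metabolism, a main readout of the study, showed small differences of nearly uniform sign. Of 34 complex I genes, 32 were lower in CM with a median of -0.10, and of 38 genes of complexes II to V, 36 were lower with a median of -0.10. The genes of each complex are read in the same libraries, so these counts do not stand for independent genes. The mean level of complex I overlapped, at 6.742 to 7.442 log2 CPM in CM and 6.845 to 7.357 in i.p. ASC. That of complexes II to V did too, at 7.977 to 8.703 in CM and 8.110 to 8.611 in i.p. ASC. For both lists CM rat 1 was above every i.p. ASC rat and CM rat 3 below every i.p. ASC rat. Ndufa1, the 1 complex I gene with an unadjusted p under 0.05, was at 50.6, 60.0 and 62.9 CPM in i.p. ASC and at 60.4, 44.2, 42.6 and 42.6 CPM in CM (log2 fold change -0.29, SE 0.12, unadjusted p 0.032). CM rat 1 stood apart from the other CM rats and inside the i.p. ASC range. The citrate cycle had 22 of 25 genes lower and a median of -0.05, and fatty acid oxidation 18 of 25 lower and a median of -0.06. Cpt2, which hands fatty acids to the mitochondrial matrix, was at 39.9, 44.9 and 51.8 CPM in i.p. ASC and at 39.8, 40.7, 35.9 and 38.7 CPM in CM (log2 fold change -0.23, SE 0.11, unadjusted p 0.043). Glycolysis had a median of -0.08, gluconeogenesis of 0.14, PPAR targets of 0.04 and cholesterol synthesis of -0.04, with 0 genes at an unadjusted p under 0.05 in each. The drug-metabolizing enzymes had a median of 0.10, amino acid breakdown of 0.06 and Nrf2 targets of 0.01, likewise with 0. The proteasome had 30 of 31 genes lower and a median of -0.11, and the cytosolic ribosomal proteins a median of -0.02. The mean level of the proteasome list also overlapped, at 6.774 to 7.057 log2 CPM in CM and 6.801 to 7.167 in i.p. ASC.

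The fibroblast list had the highest median of the 51, 0.30, with 11 of 12 genes higher in CM, and the matrix list had 24 of 31 higher with a median of 0.26. Col1a1, a chain of type I collagen, was at 123, 281 and 402 CPM in i.p. ASC and at 224, 526, 455 and 441 CPM in CM (log2 fold change 0.60, SE 0.31, unadjusted p 0.067). CM rats 2, 3 and 4 were above every i.p. ASC rat, and CM rat 1 was within their range. Col1a2, the partner chain, was at 35.5, 80.8 and 107 CPM in i.p. ASC and at 73.0, 115, 142 and 143 CPM in CM (log2 fold change 0.66, SE 0.33, unadjusted p 0.056). Dcn, a collagen-binding proteoglycan, was at 126, 182 and 272 CPM in i.p. ASC and at 175, 198, 336 and 375 CPM in CM (log2 fold change 0.51, SE 0.28, unadjusted p 0.085). Col14a1, a fibril-associated collagen, was the 1 matrix gene with an unadjusted p under 0.05, at 3.49, 8.39 and 12.4 CPM in i.p. ASC and at 4.22, 8.99, 23.7 and 19.8 CPM in CM (log2 fold change 0.79, SE 0.35, unadjusted p 0.036). The matrix proteases and their inhibitors had a median of -0.02 and smooth muscle genes one of 0.17. The lowest Col1a2 values of the i.p. ASC group were those of rats 1 and 3, and the lowest of CM was that of rat 1, the rats of high proximal tubule level; the part of tissue composition in these values was not tested.

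Serpine2 (protease nexin-1), a secreted inhibitor of thrombin and plasminogen activators, was the gene of the serpin list that stood out. It was at 38.6, 39.6, 29.3 and 28.7 CPM in CM, at 13.3, 18.03 and 24.6 CPM in i.p. ASC and between 13.9 and 18.6 CPM in the untreated rats. All 4 CM rats were above all 6 i.p. ASC and all 6 untreated rats, and the log2 fold change was 0.92 (SE 0.24, unadjusted p 0.00079, adjusted p 0.9998 by edgeR). Under the alternatives its log2 fold change ran from 0.69 to 1.03.

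Serpine2 was 1 of 24 genes taken, 12 in each direction, as those of smallest unadjusted p among genes whose groups did not overlap. They were selected on this comparison, so their separation is how they were chosen. Lrp4, a receptor of agrin and a brake on Wnt signalling, was at 21.3, 28.8 and 31.8 CPM in i.p. ASC and at 39.9, 36.0, 41.7 and 36.1 CPM in CM (log2 fold change 0.46, SE 0.09, adjusted p 0.489 by edgeR and 0.036 by DESeq2). Cldn14, a tight junction claudin that restricts calcium reabsorption in the thick ascending limb, was at 0.73, 1.04 and 1.27 CPM in i.p. ASC and at 1.75, 1.45, 1.44 and 1.98 CPM in CM (log2 fold change 0.72, SE 0.20). Its CM values lay within or near those of the untreated rats, 1.35 to 2.23 CPM, so it was the i.p. ASC rats that were apart. Nav3, a microtubule-associated protein, was at 1.36, 2.15 and 2.77 CPM in i.p. ASC and at 3.50, 4.34, 3.80 and 3.08 CPM in CM (log2 fold change 0.77, SE 0.21). The other 8 higher genes were Ahdc1, Zc3h8, Mast3, Prag1, Ehmt2, Frs3, Srcin1 and Rbm38, with log2 fold changes between 0.15 and 0.47. Among the 12 higher genes, all CM rats also exceeded all untreated rats for 5 (Lrp4, Serpine2, Mast3, Zc3h8 and Rbm38).

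Among the 12 lower genes, S100a1, a calcium-binding protein, was at 52.9, 58.6 and 73.1 CPM in i.p. ASC and at 46.7, 30.8, 42.6 and 40.6 CPM in CM (log2 fold change -0.58, SE 0.13, adjusted p 0.649 by edgeR and 0.046 by DESeq2). Its untreated values, 52.2 to 72.9 CPM, spanned nearly the same range as those of i.p. ASC. Pcdhga7, a gamma-protocadherin, was at 14.6, 19.6 and 20.3 CPM in i.p. ASC and at 9.79, 12.4, 11.4 and 10.9 CPM in CM (log2 fold change -0.73, SE 0.14, adjusted p 0.489 by edgeR and 0.005 by DESeq2). The gamma-protocadherins share their last exons, so reads of this gene are uncertain; of the 12 other family genes tested, 7 were lower and 5 higher, between -0.70 and 0.58. Dnase1, a secreted nuclease that digests extracellular DNA, was at 300.2, 422 and 566 CPM in i.p. ASC and at 261, 167, 287 and 274 CPM in CM (log2 fold change -0.76, SE 0.22). Sat1, the rate-limiting enzyme of polyamine breakdown, was at 412, 461 and 537 CPM in i.p. ASC and at 388, 362, 362 and 330 CPM in CM (log2 fold change -0.37, SE 0.10). Gfra3, a receptor of the GDNF family, was at 60.7, 70.9 and 83.9 CPM in i.p. ASC and at 52.5, 50.8, 57.1 and 57.9 CPM in CM (log2 fold change -0.36, SE 0.10). The remaining 7, Tmem151a, Snurf (whose transcript overlaps Snrpn), Tmx4, Itpkc, Cryba4, Pla2g10 and Ssr1, had log2 fold changes between -0.80 and -0.21. For 8 of the 12 lower genes the CM rats were also below all untreated rats. The genes were chosen by the values of these same CM rats, so this count and that of the higher genes are not separate evidence. The share of all genes tested that were apart from both groups was not computed.

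**Figure D5:**
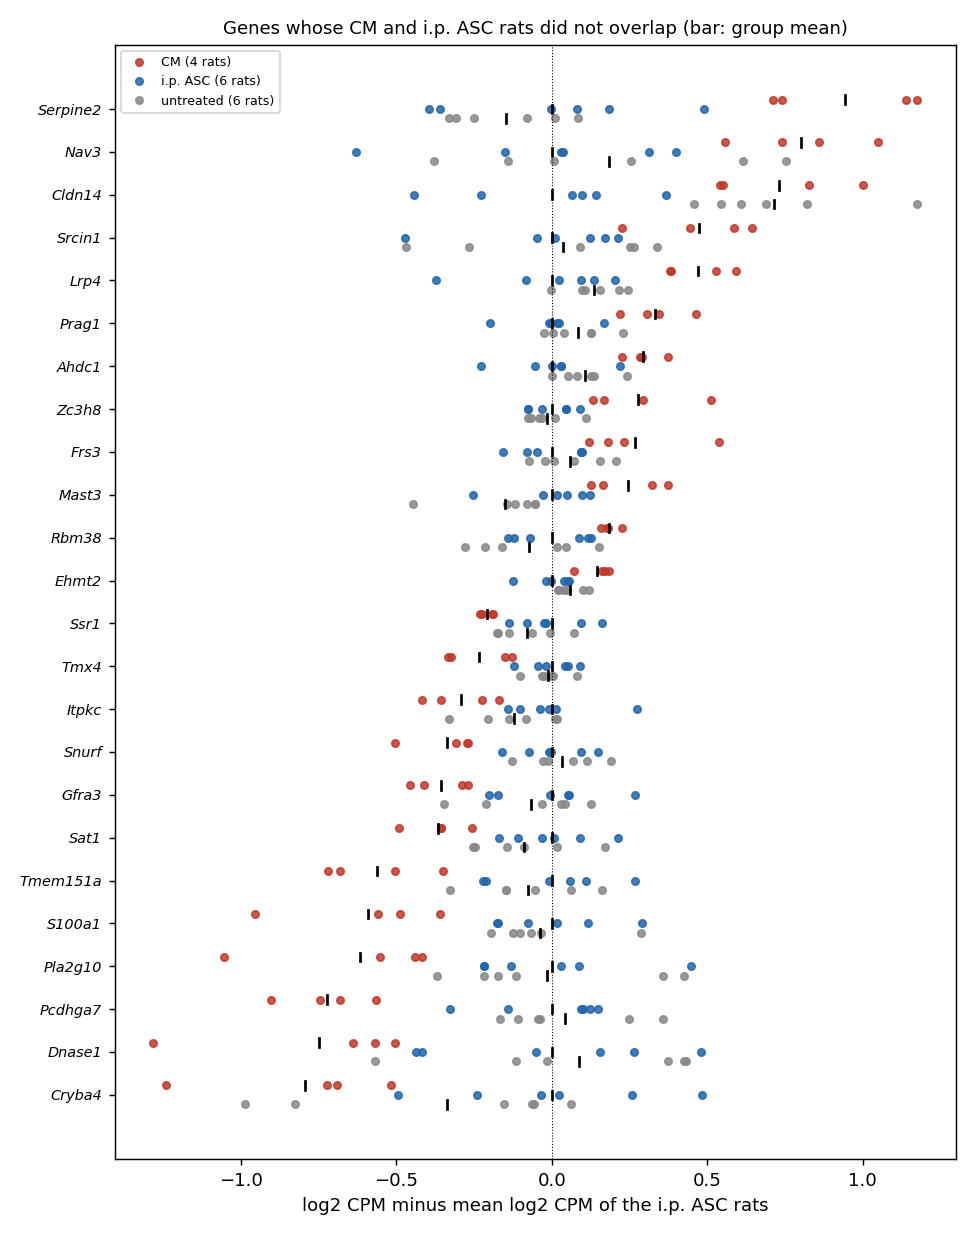
The 24 genes of smallest unadjusted p among those whose CM (red) and i.p. ASC (blue) rats did not overlap, as log2 CPM minus the mean of the i.p. ASC rats (x axis), with untreated rats in grey and black bars for group means. Serpine2 lies farthest to the right and Cryba4 and Dnase1 farthest to the left.

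Injury markers were lower on average in CM without a difference beyond the spread. Of 16 tubular injury genes, 14 were lower with a median of -0.11. Havcr1 (KIM-1), shed by damaged proximal tubules, was at 90.1, 174 and 379 CPM in i.p. ASC and at 138, 132, 115 and 140 CPM in CM (log2 fold change -0.60, SE 0.39, unadjusted p 0.14). The CM rats lay close together inside the wide i.p. ASC range. Lcn2 (NGAL) was at 107, 191 and 362 CPM in i.p. ASC and at 105, 208, 140 and 157 CPM in CM (log2 fold change -0.37, SE 0.37, unadjusted p 0.33). Fgg, the fibrinogen gamma chain that injured tubules make, was at 1.82, 3.57 and 4.94 CPM in i.p. ASC and at 1.99, 1.69, 2.08 and 1.98 CPM in CM (log2 fold change -0.83, SE 0.34, unadjusted p 0.024).

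The disease gene Anks6 was at 50.7, 59.9 and 75.7 CPM in i.p. ASC and at 90.9, 61.4, 65.7 and 72.7 CPM in CM (log2 fold change 0.21, SE 0.16, unadjusted p 0.19). Its level does not read the mutation, which changes the protein. Invs (inversin), its partner in the ciliary base, had a log2 fold change of 0.20 (SE 0.11, unadjusted p 0.077). The 17 cystic disease and cilium genes had a median of 0.07, and the genes of cyclic AMP synthesis and breakdown one of 0.01, both with 0 genes at an unadjusted p under 0.05. Cell division genes had a median of -0.01, cell cycle inhibitors and p53 targets of -0.05, and the EGF family of 0.05. The TGF-beta list had a median of 0.13 with 18 of 26 genes higher, and the Wnt list one of 0.10 with 20 of 28 higher, again with 0 genes at that threshold. Birc2, of the inhibitor of apoptosis family, was the 1 gene of the Bcl2 and caspase list at an unadjusted p under 0.05 (log2 fold change -0.21, SE 0.07, unadjusted p 0.0093). Its CM rats were all below its i.p. ASC rats, as for 0.358% of all genes tested. The median of the Bcl2 and caspase list was -0.03. The renin-angiotensin list had a median of 0.03, and its 1 gene at that threshold was Atp6ap2, already given as a proton pump accessory protein.

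Immune genes showed no group of separate values. All 14 macrophage genes were higher in CM, with a median of 0.09 and 0 at an unadjusted p under 0.05. T cell genes had a median of 0.23 with 11 of 13 higher, and interferon-stimulated genes one of 0.15 with 25 of 29 higher, also with 0. Complement had a median of 0.08, antigen presentation of 0.06, B and plasma cells of 0.08 and neutrophils and mast cells of -0.19. Cxcl2, a neutrophil-attracting chemokine, was the 1 gene with an unadjusted p under 0.05 of both the chemokine list (median 0.09) and the NF-kB list (median -0.03). It was at 0.08, 0.44 and 0.75 CPM in i.p. ASC and at 0.64, 0.56, 1.01 and 1.34 CPM in CM (log2 fold change 1.08, SE 0.47, unadjusted p 0.032), a level of few counts.

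Immediate early genes, which respond within minutes to handling of tissue, had 19 of 21 log2 fold changes below 0 and a median of -0.24, with 1 at an unadjusted p under 0.05. The mean level of the list overlapped between the groups, at 4.96 to 5.90 log2 CPM in CM and 5.35 to 5.95 in i.p. ASC. Fosb, an inducible AP-1 subunit, was at 4.86, 7.41 and 10.8 CPM in i.p. ASC and at 1.99, 2.25, 6.10 and 3.48 CPM in CM (log2 fold change -1.08, SE 0.51, unadjusted p 0.045). Only CM rat 3 reached the i.p. ASC range. Atf3, a stress-induced factor, was at 41.1, 56.4 and 62.8 CPM in i.p. ASC and at 24.1, 28.3, 34.0 and 58.2 CPM in CM (log2 fold change -0.56, SE 0.35, unadjusted p 0.12). Nr1d1, a repressor of the circadian clock, had a log2 fold change of 0.24 (SE 0.11, unadjusted p 0.037), and the clock list had a median of 0.09. The heat shock list had a median of -0.01 and the hypoxia list of 0.00. Endothelial genes had a median of -0.01, urothelial genes, which lay near the floor, of -0.24 and adipocyte genes of 0.05. The part of handling, time of day or tissue sampling in the differences above was not tested.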

How the data were processed

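Total RNA of the left kidney was sequenced by the authors on the BGISEQ-500 platform. They deposited, per rat Entrez gene, an estimated count without normalization and a length-corrected TPM, which sums to between 959754 and 968550 per rat. The submitters' processing notes name Trim Galore 0.6.4, kallisto and the build rn6. The study's methods name a human transcript package, while the identifiers are those of the rat.

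Estimated counts were rounded (14.14% were not whole). Symbols came from RefSeq (GRCr8, used for names and promoter sequences) for 17179 of 17334 genes. Genes were filtered with filterByExpr, normalized with TMM and fitted with edgeR 4.0.16 (R 4.3.3, quasi-likelihood) over all 22 rats (also 6 untreated and 6 given ASC intravenously, which share the estimate of spread), and adjusted over 12867 genes. Alternatives used DESeq2 1.42.0, sva 3.50.0 and limma 3.58.1. The rats were taken as separate animals from their animal numbers, and replicate numbers here only follow accession order. CPM are TMM-normalized.

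Genes were named as those that passed the adjusted test (0), the 12 per direction described above, up to 4 members of smallest unadjusted p and up to 2 of highest level per list described, the DESeq2 calls, and Anks6, Havcr1 and Lcn2. Proton pump and kallikrein genes and Sgk1 were added after values were seen. The members and lists were chosen with earlier results of these data known. ABCB5+ groups were not analysed here. Results of some items are not reported here.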

Additional observations from a re-analysis of the deposited data

Results flagged for a closer look

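Single rats lay far from the rest of their group in 12 of 286 sets of values examined (4.2%), and about 1 set in 20 is expected to be picked out by the rule used. The rats concerned were mostly those already named. In i.p. ASC rat 5, Foxi1 was at 254 CPM against 132 to 175 CPM in the other 5, Sgk1 at 461 CPM against 218 to 302 CPM, Itpkc at 39.4 CPM against 29.6 to 32.9 CPM, and Klk1c3, a low-count kallikrein, at 2.56 CPM against 0.84 to 1.12 CPM. In CM rat 1, Rhbg was at 246 CPM against 157 to 167 CPM in the other 3, Atp6v1h at 119 CPM against 86.1 to 91.5 CPM, Ndufa1 at 60.4 CPM against 42.6 to 44.2 CPM, and Birc2 at 42.0 CPM against 47.6 to 48.4 CPM. The mean log2 CPM of the Bcl2 and caspase list was 4.97 in that rat against 5.19 to 5.21, and that of the urothelial list was -0.84 against -0.94 to -0.92. The urothelial genes were near the floor, with CM means from 0.02 CPM (Upk2) to 1.34 CPM (Upk1a), so that small gap carries little. The cell division list was lowest in i.p. ASC rat 3, at 3.19 against 3.66 to 3.72, and the cytosolic ribosomal protein list highest in i.p. ASC rat 2, at 9.15 against 8.48 to 8.72. These values are given without an explanation, which was not tested.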

How the results depend on the processing

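The adjusted edgeR call of 0 genes held under the other edgeR and limma settings, and DESeq2 gave 3. The number of genes at an unadjusted p under 0.05, 379 as reported, was 786 with 1 surrogate variable, 232 and 235 with limma on log2(TPM + 1) and log2(TPM + 0.1), and 185 without both CM rat 2 and i.p. ASC rat 5, where 94 were higher and 91 lower in CM against 130 and 249 as reported. Leaving out 1 rat at a time, it ran from 250 (without i.p. ASC rat 5) to 732 (without CM rat 1). The 69 genes without overlap (23 higher, 46 lower) became 41 (25 higher, 16 lower) on the deposited TPM. The median log2 fold change of all genes, 0.01, was -0.01 without CM rat 1, with 52.3% of genes lower. The intercalated cell genes lower in CM at that threshold, 10 as reported, were 3 without CM rat 2 and i.p. ASC rat 5 and 6 to 11 with 1 rat left out, and 7 of 13 on TPM; the median of the list was below 0 in every setting, from -0.54 to -0.24. The 2 settings that leave out several rats were chosen after seeing the data. The causes were not tested.

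Of the 92 genes followed through the alternatives, the following changed sign. Aqp2 became 0.0079 with animal number or 0.0049 with proximal tubule level in the fit, 0.0141 on log2(TPM + 1) and log2(TPM + 0.1) and up to 0.10 with 1 rat left out (range -0.18 to 0.10). Umod became -0.15 with 1 surrogate variable, -0.0654 and -0.0655 on these TPM scales, -0.16 without CM 1, i.p. ASC 1 and i.p. ASC 3, and -0.0803 without CM 2 and i.p. ASC 5, with a range of -0.37 to 0.40 when 1 rat was left out. Atp6v1g1 became 0.0054 with animal number in the fit. Atp6v1g2 became -0.16 without CM 1, i.p. ASC 1 and i.p. ASC 3. The other sign turns came from leaving out 1 rat at a time, which gave the following ranges.
Miox ran from -0.27 to 0.54. Aqp6 ran from -0.0263 to 0.3116. Atp6v0d1 ran from -0.2108 to 0.0393. Atp6v0e2 ran from -0.15 to 0.20. Atp6v1c1 ran from -0.1543 to 0.0091. Atp6v1g1 ran from -0.1433 to 0.0273. Atp6v1g2 ran from -0.0163 to 0.2308.

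No paired analysis was possible because the rats of the 2 groups are different animals, no animal number is shared, and the replicate numbers used here follow accession order and pair nothing. The call of single genes depended on the tool at 4 against 6 rats, with 0 by edgeR and 3 by DESeq2. Low-count genes such as Cxcl2 and Klk1c3 rest on few counts. The 4 CM rats are fewer than the study treated.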
